A study of Mus musculus with 6 samples.

Results

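Cytosolic ribosomal proteins are the protein parts of the ribosomes that translate messenger RNA in the cytoplasm. Their genes were examined here as 89 members among 21887 protein-coding genes. A member is a protein-coding gene of the mm10 assembly (RefSeq gene table for GRCm38.p6) whose symbol begins with Rpl or Rps and a digit, or is Rplp0, Rplp1, Rplp2 or Rpsa. The rule left out 10 Rps6k kinase genes and 2 symbols ending in -ps with a number, and it used no measured value. Of the members, 77 encode the standard proteins of the ribosome, 46 in the large and 31 in the small subunit. The other 12 are paralogs, retrogenes or genes such as Rps19bp1 that match by name only.

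The study compared sperm from the epididymis and vas deferens of wild-type C57BL6 mice (WT, 4 libraries) and of mice with K49A, a lysine-to-alanine exchange in protamine 1 (2 libraries). The libraries of each genotype are described as biological replicates, made from the same number of sperm per genotype. The sources used here give neither age nor the number of animals per library, so p-values measure the spread between libraries only. All 6 libraries had the same treatment: DNase I, decondensation with 50 mM DTT, and MNase (micrococcal nuclease) in rounds of 5 and 15 units, with mononucleosome-sized DNA cut from a gel. MNase cuts DNA that no protein shields, so the lists of enriched regions (peaks) mark sites rich in nucleosome-sized fragments, and they measure no RNA.

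In sperm, protamines replace most histones, and the nucleosomes that remain in mouse are known for their tie to CG-rich promoters. Ribosomal protein genes are short, among the most active genes of dividing cells, and many of their messages start with a run of pyrimidines, the 5′ terminal oligopyrimidine tract, through which their translation is tuned together. Some of the standard genes lie on chromosome X, which is silenced during male meiosis, and autosomal copies of some of them, such as Rpl10l and Rpl39l, are known for expression in male germ cells.

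Promoter runs are shown for the highest-ranked member of each subunit that had a sequence entry, Rpl7a and Rps19, and for 2 X-linked genes beside their germ cell paralogs, because the former had peaks in all 4 WT libraries and the latter in 1 or none. All are RefSeq sequence of GRCm38.p6, 5′ to 3′ on the gene's strand. Each run ends 20 bases past the annotated start of the gene and is shorter where the listed start site lies inside the gene, and capitals mark CG dinucleotides.
Rpl7a, chr2:26910557-26910704, plus strand: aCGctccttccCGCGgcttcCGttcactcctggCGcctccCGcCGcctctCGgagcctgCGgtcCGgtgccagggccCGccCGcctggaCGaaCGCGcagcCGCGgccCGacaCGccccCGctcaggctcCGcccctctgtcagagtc
Rps19, chr7:24884342-24884611, plus strand: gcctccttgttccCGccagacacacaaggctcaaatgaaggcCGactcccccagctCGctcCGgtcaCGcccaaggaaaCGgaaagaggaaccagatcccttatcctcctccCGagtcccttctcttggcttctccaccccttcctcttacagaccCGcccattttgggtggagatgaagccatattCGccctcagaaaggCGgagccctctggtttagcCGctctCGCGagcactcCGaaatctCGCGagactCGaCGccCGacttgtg
Rpl10, chrX:74270566-74270835, plus strand: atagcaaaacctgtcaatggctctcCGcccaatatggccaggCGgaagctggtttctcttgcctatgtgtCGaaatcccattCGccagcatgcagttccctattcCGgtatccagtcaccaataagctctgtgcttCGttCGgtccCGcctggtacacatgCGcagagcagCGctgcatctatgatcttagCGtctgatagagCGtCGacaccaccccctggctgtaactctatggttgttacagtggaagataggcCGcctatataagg
Rpl10l, chr12:66284382-66284651, minus strand: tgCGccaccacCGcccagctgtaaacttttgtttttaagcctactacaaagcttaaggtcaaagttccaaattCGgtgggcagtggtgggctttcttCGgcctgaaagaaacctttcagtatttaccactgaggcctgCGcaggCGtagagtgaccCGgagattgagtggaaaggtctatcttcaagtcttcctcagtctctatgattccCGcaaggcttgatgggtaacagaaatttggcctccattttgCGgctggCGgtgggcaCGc
Rpl39, chrX:37085203-37085472, minus strand: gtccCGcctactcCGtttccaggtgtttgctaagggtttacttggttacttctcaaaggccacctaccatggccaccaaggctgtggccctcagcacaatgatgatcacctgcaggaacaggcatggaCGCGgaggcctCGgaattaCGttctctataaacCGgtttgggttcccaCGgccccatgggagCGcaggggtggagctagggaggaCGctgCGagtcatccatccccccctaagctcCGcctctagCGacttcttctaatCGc
Rpl39l, chr16:10169978-10170216, plus strand: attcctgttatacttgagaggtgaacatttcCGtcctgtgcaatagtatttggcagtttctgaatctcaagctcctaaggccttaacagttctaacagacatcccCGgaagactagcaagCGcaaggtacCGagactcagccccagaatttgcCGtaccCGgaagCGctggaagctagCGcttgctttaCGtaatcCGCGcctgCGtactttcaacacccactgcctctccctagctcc
The run of Rpl7a has 21 CG dinucleotides in 148 bases, and peaks covered all of it in every WT library. The run of Rps19 has 19 in 270 bases and was covered in full in WT 2, WT 3 and WT 4. Rpl10 has 14, Rpl10l 11 and Rpl39 14 in 270 bases, and no peak of any library lay over these runs. Rpl39l has 12 in 239 bases, of which a WT 3 peak covered 128 bases.

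The first question was how many ribosomal protein genes carry a peak in each genotype. A gene was counted as called in a library if a peak overlapped the 1 kb on either side of one of its annotated ends by at least 1 bp. In WT 1 to 4, 27, 51, 53 and 54 of the 89 members were called, or 30.3, 57.3, 59.6 and 60.7%. Among all coding genes the called share was 28.8, 43, 46.3 and 49.9%. In K49A 1 and K49A 2 no member was called, where 0.429 and 0.334% of all coding genes were.

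In WT the mean share of members was 52 ± 14.5% (SD, n = 4), and WT 1 stood well below the other WT libraries. In each WT library more members were called than genes at large, by 1.54, 14.3, 13.2 and 10.8 percentage points. That surplus lay among weak calls. When each WT list was limited to its 11313 strongest peaks, the length of the WT 1 list, 27, 28, 24 and 26 members were called (30.3, 31.5, 27.0 and 29.2%) against 28.8, 27.9, 29.2 and 31.2% of all coding genes, a mean difference of 0.198 percentage points. Among peaks with a −log10 p of 5 or more the mean difference was -1.91 percentage points, so the direction depended on the strength asked of a peak.

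The lists themselves differed in length, with 11313 to 27903 peaks in WT and 700 and 1017 in K49A. With every list limited to 700 peaks, WT 1 to 4 held 0, 1, 1 and 0 called members (Rpl4 in WT 2 and Rpl23 in WT 3) and the K49A lists none. At that common length 2.13, 1.52, 1.62 and 1.91% of all coding genes were called in WT 1 to 4, and 0.429 and 0.233% in K49A, so the genotypes still differed over genes at large. For the members alone, the K49A count of 0 cannot be told apart from the shortness of those lists. The deposited files are named in 3 styles, 1 shared by WT 1 and K49A 1, another by WT 4 and K49A 2, and the last by WT 2 and WT 3, and what the styles stand for is not stated. Within the 2 styles that hold both genotypes, the called share was 30.3% against 0 and 60.7% against 0. Over all members the median distance to the nearest K49A peak was 604148 bp.

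**Figure D1:**
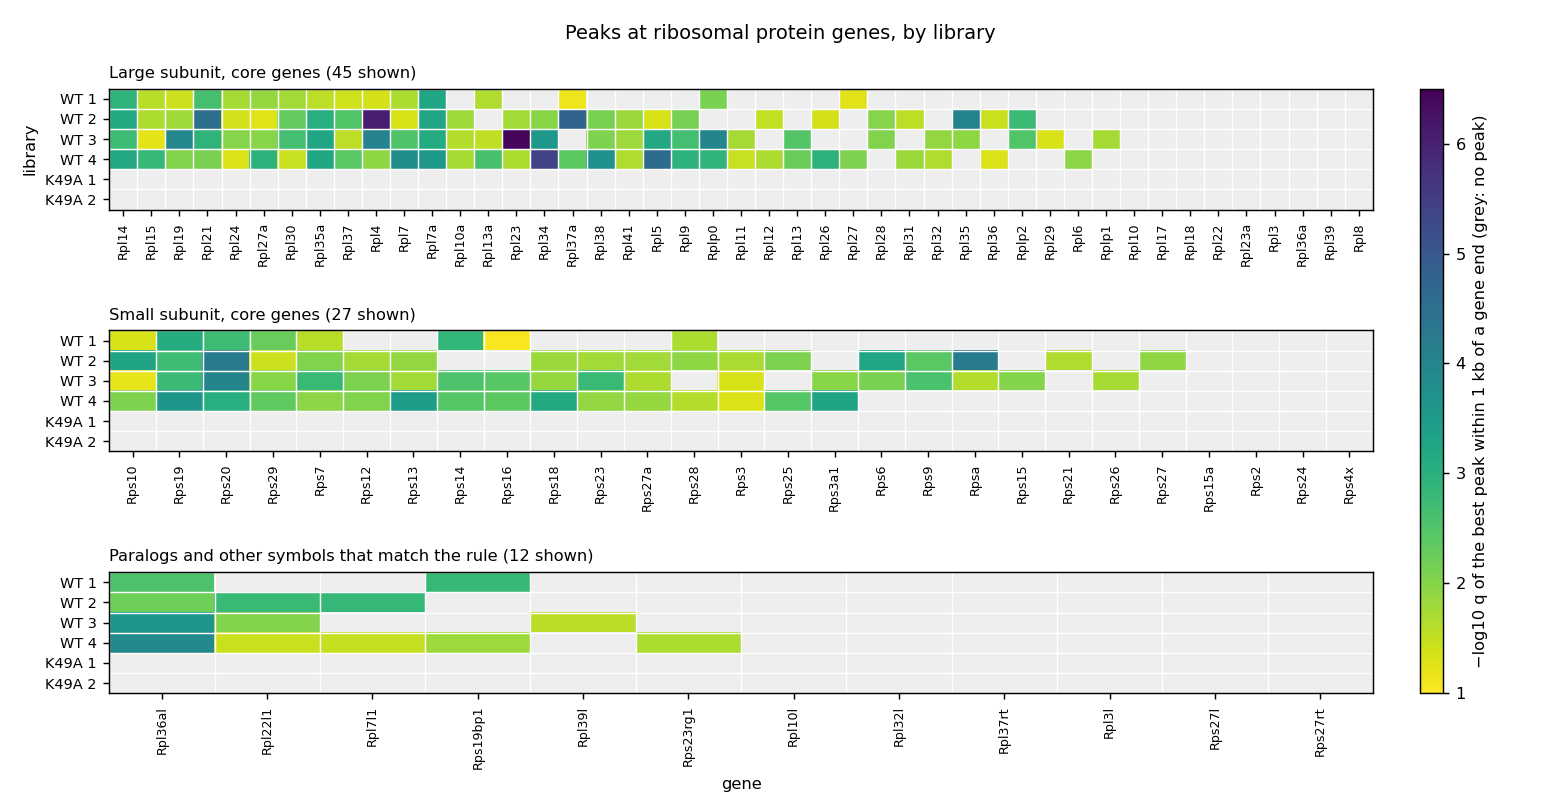
Each tile is 1 gene (x axis) in 1 library (y axis), coloured by the −log10 q of its best peak within 1 kb of a gene end, with grey for no peak. Of the 89 members 84 are shown; the 2 K49A rows are empty, WT 1 has 26 coloured tiles and the other WT libraries have 48 to 52.

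Over both genotypes, 18 members had a peak in every WT library but in no K49A library, which is 20.2% of members beside 21.8% of all coding genes. Another 21 members were called in 3 WT libraries, 20 in 2, 10 in 1 and 20 in none. Among all coding genes 40.2% were called in no WT library, against 22.5% of the members. Members were thus called more often than genes at large in at least 1 WT library, and about as often in all 4.

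For each gene the length covered by peaks within the windows was compared between genotypes with a two-sided exact permutation test that ran through all 15 ways to place the genotype labels. The 18 members had p = 0.133, the smallest this exact test can give, as did every gene whose WT values all exceeded its K49A values (22% of all coding genes). No member had its WT values below its K49A values, a pattern of 0.0183% of coding genes. With Benjamini-Hochberg adjustment over all genes, and also without it, no gene was below 0.05, which the number of libraries does not allow. Over members the covered length averaged 289 ± 100 bp per gene in WT (SD, n = 4) and 0 bp in K49A, and over all coding genes 274 ± 83.5 bp and 1.31 bp.

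Within the large subunit, 56.5 ± 15.2% of 46 core genes were called in WT (SD, n = 4), and 12 of them in all 4 libraries. These were Rpl4, Rpl7, Rpl7a, Rpl14, Rpl15, Rpl19, Rpl21, Rpl24, Rpl27a, Rpl30, Rpl35a and Rpl37. Rpl10a, Rpl13a, Rpl23, Rpl34, Rpl37a, Rpl38, Rpl41, Rpl5, Rpl9 and Rplp0 were called in 3 libraries. Rpl38 is the protein known for its part in the translation of Hox messages, and its missing library was WT 1. Those called in 2 included Rpl11, Rpl12, Rpl13, Rpl26, Rpl27, Rpl28, Rpl31, Rpl32, Rpl35, Rpl36 and Rplp2, and those called in 1 included Rpl6, Rpl29 and Rplp1. The 9 in no library were Rpl3, which shapes the peptidyl transferase centre, Rpl8, Rpl10, Rpl17, Rpl18, Rpl22, Rpl23a, Rpl36a and Rpl39.

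Within the small subunit, 54.8 ± 18.2% of 31 core genes were called (SD, n = 4), and 5 of them in all 4 WT libraries: Rps7, Rps10, Rps19, Rps20 and Rps29. Those called in 3 libraries included Rps3, Rps12, Rps13, Rps14, Rps16, Rps18, Rps23, Rps27a and Rps28. Those in 2 libraries included Rps3a1, Rps6, the target of S6 kinases, Rps9, Rps25 and Rpsa, and in 1 library Rps15, Rps21, Rps26 and Rps27. Genes called in none included Rps2, Rps4x, Rps15a and Rps24. The subunits did not separate: the large-subunit share was higher by 5.75 and 14.7 percentage points in WT 1 and WT 4, and lower in WT 2 and WT 3, with differences of -9.05 and -4.70.

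Much of the recurrence turned on WT 1, the shortest WT list. Of the 21 members called in 3 WT libraries, 14 were missed only in WT 1, and without that library 32 members were called in all WT libraries. Of the 27 members called in WT 1, 21, 23 and 26 were called in WT 2, 3 and 4. No member was called in WT 1 alone. WT 1 also called the fewest coding genes, 28.8% against 43, 46.3 and 49.9% in WT 2, 3 and 4. The matching counts over all coding genes were not made, so this pattern is not shown to be particular to the members.

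The ribosomal stalk recruits elongation factors to the ribosome, and its 4 genes were each called in 1 to 3 WT libraries. Rplp0, the stalk base, had folds of 3.36, 3.83 and 3.02 in WT 1, WT 3 and WT 4. A fold is the authors' enrichment of a peak over the background of its own library and was not compared between genotypes. Rplp2 was called in WT 2 and WT 3 with folds of 3.40 and 3.27, at a start it shares with Pidd1. Rpl12 was called in WT 2 and WT 4 (2.81 and 2.57), at a start it shares with Lrsam1, and Rplp1 in WT 3 only (2.95).

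Rpl5 and Rpl11 bind 5S ribosomal RNA and, when free of the ribosome, restrain Mdm2 and so stabilise p53. Rpl5 was called in WT 2, WT 3 and WT 4 with folds of 2.79, 3.53 and 3.80. Its peaks were centred 335, 253 and 264 bp past its listed start site. Rpl11 was called in WT 3 and WT 4 (2.93 and 2.54), centred 401 and 414 bp into the gene. Both thus carried peaks just inside the start in more than 1 WT library. Of 18 genes linked to Diamond-Blackfan anaemia, an inherited failure of red cell production, 8, 13, 10 and 13 were called in WT 1 to 4 (44.4, 72.2, 55.6 and 72.2%), and 6 in all 4 WT libraries. All coding genes were at 28.8, 43, 46.3 and 49.9%, with 22.2% called in all 4 WT libraries. Core members were at 32.5, 62.3, 64.9 and 63.6%, with 17 of 77 called in all 4, so in WT 3 the Diamond-Blackfan share was the lower one. Stricter peaks and equal list lengths, which removed the members' surplus, were not tried for these 18 genes.

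The 18 members called in all 4 WT libraries were ranked by where the −log10 q of their best peak stood in each list (its percentile, averaged over the WT lists), and the leading 10 are described here. Their K49A values are 0 bp throughout. Rps20, a small-subunit protein (chromosome 4, 3831584 to 3835655), ranked first. Its windows were covered over 306, 789, 1425 and 574 bp in WT 1 to 4, with −log10 q of 2.73, 4.26, 4.0 and 3.05. All 4 WT peaks met at the high end of the gene, where they shared 270 bp. The fold was 3.09 ± 0.0784 (SD, n = 4), so the peaks were alike in fold while their width ran from 306 to 1929 bp.

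Rpl7a (chromosome 2, 26910685 to 26913312) had 316, 876, 518 and 591 bp covered in WT 1 to 4 and a fold of 3.41 ± 0.271 (SD, n = 4). Its 4 peaks shared 316 bp, lay over the CG-rich run shown above, and also lay within 1 kb of Med22, a Mediator subunit gene at the same start. Rps19, the gene most often mutated in Diamond-Blackfan anaemia (chromosome 7, 24884592 to 24889811), had 428, 1105, 1610 and 735 bp and a fold of 3.17 ± 0.228 (SD, n = 4). The WT 1 peak of Rps19 was centred 318 bp into the gene, and the other WT peaks spanned its start.

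Rpl14 (chromosome 9, 120571517 to 120574653) had 299, 542, 893 and 685 bp covered in WT 1 to 4, with peaks centred 162, 133, 565 and 431 bp into the gene and a fold of 3.32 ± 0.289 (SD, n = 4). All its peaks were thus centred inside the gene. Rps7, a Diamond-Blackfan gene (chromosome 12, 28630847 to 28635953), had the widest region common to the 4 WT libraries among these 10, 755 bp, with 755, 1043, 1517 and 955 bp covered. Its −log10 q was only 1.6, 2.05, 2.79 and 1.95, so broad coverage came with modest significance.

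Rpl4 (chromosome 9, 64173387 to 64178562) showed the least uniform peaks. In WT 1, 2 and 3 its best peak was centred at -776, -778 and -780 bp from the start, on the side of the neighbouring gene Zwilch, and in WT 4 at 228 bp inside the gene. No base was common to the 4 peaks, and the fold was 3.57 ± 0.760 (SD, n = 4), with 4.53 in WT 2. Rpl7, for which no start was listed, likewise had no base common to its best peaks, and its fold was 2.62 ± 0.261 (SD, n = 4). Of the 18 members called in all 4 WT libraries, 15 had a region common to all 4 best peaks.

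Rpl21 had 487, 426, 369 and 453 bp covered and a fold of 3.47 ± 0.510 (SD, n = 4), the most even coverage of the 10. Rpl35a had 210, 625, 759 and 696 bp at a start it shares with Iqcg, and a fold of 3.21 ± 0.136 (SD, n = 4). Rpl36al, a paralog of the X-linked Rpl36a (chromosome 12, 69182734 to 69184067), had 833, 740, 683 and 1259 bp covered. Its peaks were centred at -380, -318, -514 and -384 bp from its start, towards Mgat2, a glycosyltransferase gene. Its call therefore cannot be told apart from one of Mgat2.

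**Figure D2:**
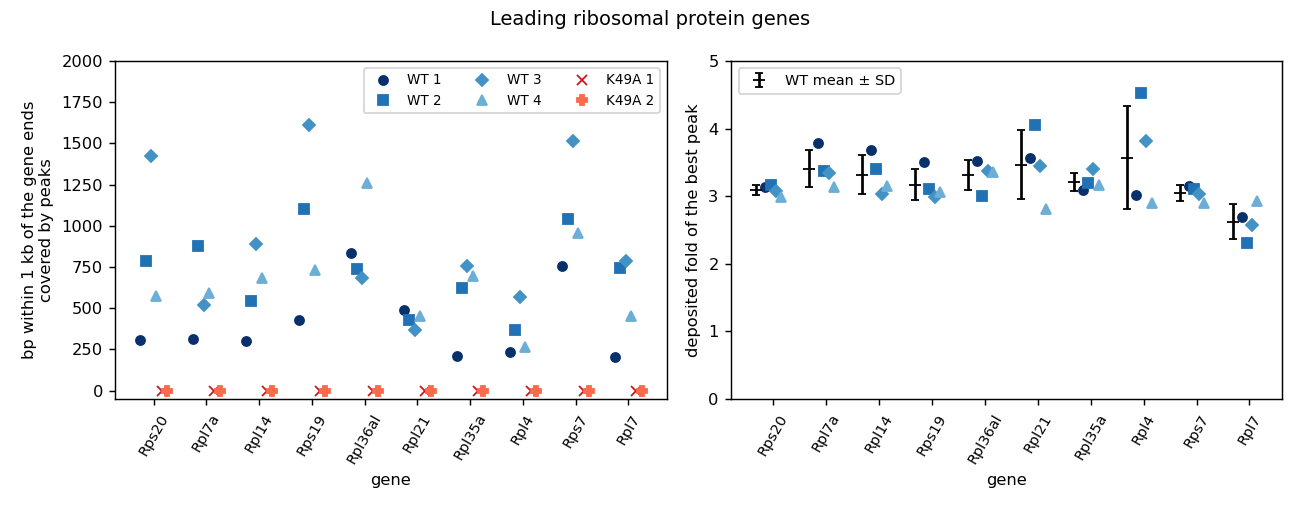
Left, bp within 1 kb of the gene ends covered by peaks, for the 10 leading genes in each library; right, the authors' fold of the best WT peak, with the WT mean and SD (n = 4). All WT points on the left lie between 207 and 1610 bp and all K49A points at 0, and mean folds lie between 2.62 and 3.57.

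The peaks at ribosomal protein genes were of middling to low strength for their lists. The median −log10 q of the best peak was 1.69, 1.98, 2.07 and 2.18 in WT 1 to 4, against 2.26, 2.18, 2.41 and 2.73 over all called coding genes. The median width was 408, 527, 566 and 558 bp, against 488, 694, 703 and 604 bp. Members thus had lower significance and narrower peaks than called genes at large in all 4 WT libraries. Their median fold of 3.02 ± 0.0944 (SD, n = 4) was within the spread of the 3.05 ± 0.136 of all called genes. The strongest call was at Rpl23 in WT 3, with a −log10 q of 6.40 and a fold of 4.46, a gene singled out after its values were seen.

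Where the strand was known, the peaks sat mostly at the start of the gene, in members as in coding genes at large. The promoter table gave a strand for 69 members and 17492 coding genes. At the start, 19, 40, 41 and 39 of the 69 members were called in WT 1 to 4, beside 27.6, 40.8, 44.1 and 47.2% of all coding genes with a strand. In K49A 1 and 2 no member was called at the start (0.314 and 0.2% of genes) or at the far end (0.131 and 0.126%). At the far end, 1, 4, 3 and 4 members were called, beside 1.96, 4.01, 4.57 and 5.51% of genes. Of the members called at the start, 96.3% on average over the WT libraries were not called at the far end, which falls to 74.7% with windows of 2 kb. Short genes have overlapping windows: the median length of members was 3183 bp, and of coding genes 17169 bp.

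A few calls were at the far end alone. They were Rpl13a in WT 1, Rpl23 in WT 2, and Rpl41, Rps18, Rpl7l1 and Rps23rg1 in WT 4. In WT 1, 1 peak gave the calls of 2 members. In the other WT libraries each called member had a best peak of its own.

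Peak coverage was highest just inside the gene. The position covered in most members was 50, 150, 250 and 150 bp after the start in WT 1 to 4, where 13, 32, 32 and 33 of 69 members were covered (18.8, 46.4, 46.4 and 47.8%). Over all coding genes the highest position was 150 bp after the start in each WT library, with 18.2, 29.7, 33.3 and 38.0% covered. The members' summit was thus the higher one in each WT library, but in WT 1 the values were nearly equal, 18.8 and 18.2%. Taking the highest of many positions can raise the value more in a set of only 69 genes. At 150 bp, the summit of all coding genes, 18.8, 46.4, 43.5 and 47.8% of members were covered, so the order held there. The profile was not repeated with stricter peaks, equal list lengths or genes of like CG content. Farther in the order turned: at 600 bp after the start 1.45, 10.1, 17.4 and 8.70% of members were covered in WT 1 to 4, against 8.26, 17.1, 18.7 and 15.7% of all coding genes. The best peaks of members called at the annotated start were also compared with the listed start site. In WT 1 to 4 that site was spanned by 11 of 19, 25 of 40, 18 of 41 and 22 of 39. It lay at the annotated start in 59 of the 69 members. Peaks over an annotated start alone, such as that of Rpl7a in WT 1, were thus not counted as spanning. The matching share of all coding genes is not given here.

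**Figure D3:**
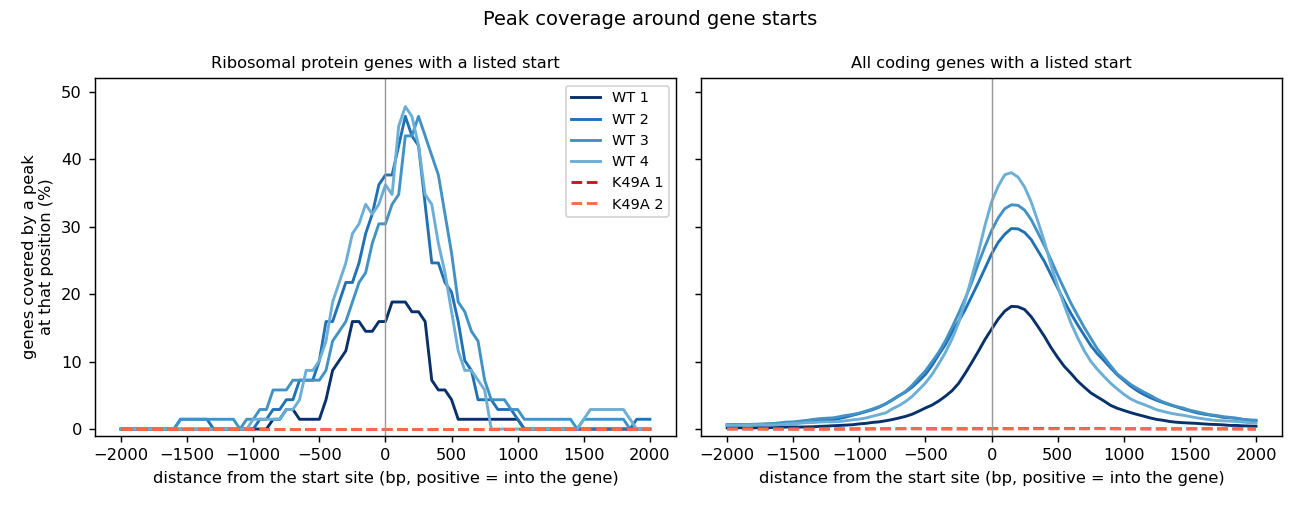
Percent of genes (y axis) with a peak over each position from 2 kb before to 2 kb after the start site (x axis, bp), 1 line per library, for 69 ribosomal protein genes (left) and 17492 coding genes (right). WT lines peak 50 to 250 bp inside the ribosomal protein genes, at 18.8% in WT 1 and at 46.4 to 47.8% in the other WT libraries, and the K49A lines stay at 0 on the left.

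Several genes counted as uncalled had WT peaks a little farther in. Rpl17 had a peak in all 4 WT libraries, 1606 to 1685 bp inside its nearest annotated end, with folds of 3.82, 3.64, 3.01 and 4.29. Rps2, which lies at the messenger entry of the small subunit, had peaks 1328 to 1454 bp inside its nearest end in all 4 WT libraries, with folds of 3.02, 2.53, 2.46 and 2.32. These peaks overlapped or lay within 226 bp of another start site listed for Rps2. Rps27l, Rpl18 and Rpl22 were covered in the same way in 3, 3 and 2 WT libraries, at most 237 bp from a listed start site. With windows also placed around every listed start site, an alternative chosen after seeing the data, 28, 54, 57 and 58 members were called in WT 1 to 4, 16 members in no WT library, and still none in K49A. Under these windows 31.6, 46.4, 49.7 and 53.4% of all coding genes were called in WT and 0.471 and 0.379% in K49A. The members' share of 31.5% in WT 1 was then no longer above that of all coding genes, while 60.7, 64.0 and 65.2% in WT 2, 3 and 4 were.

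The 4 X-linked members, Rpl10, Rpl36a, Rpl39 and Rps4x, had no peak at an end in any of the 6 libraries. On chromosome X as a whole, 2.17, 15.2, 16.8 and 8.7% of 966 coding genes were called in WT 1 to 4, and 74.8% were called in no WT library, while both K49A libraries had 0.207%, so an uncalled X-linked gene was the usual case. Their 300-base promoters in the RefSeq table had 13 to 20 CG dinucleotides, where the median of all 69 members was 21. The nearest K49A peak lay 465794 bp or more from each of them. On the autosomes 54.4 ± 15.2% of 85 members were called in WT (SD, n = 4), beside 44.0 ± 9.56% of autosomal coding genes.

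The germ cell paralogs had few calls. Rpl10l, on chromosome 12, was called in no library, and Rpl39l, on chromosome 16, in WT 3 only, with a fold of 2.81, a −log10 q of 1.58 and 603 bp covered. Among the other paralogs, Rpl36al was called in all 4 WT libraries, Rpl22l1 in WT 2, WT 3 and WT 4 (folds of 3.25, 3.06 and 2.69) and Rpl7l1 in WT 2 and WT 4. Rpl3l, the striated muscle counterpart of Rpl3, was called in none, nor were Rps27l, Rpl32l and the retrogenes Rpl37rt and Rps27rt. Rps19bp1, which matches by name only, was called in WT 1 and WT 4, and Rps23rg1, also outside the core set, in WT 4. Of all, 6 of these 12 genes were called in no WT library, against 14 of the 77 core genes and 40.2% of all coding genes. With only 12 genes, that count does not set them apart from genes at large. Rps27l, 1 of the 6, had the WT peaks farther in that are described above. Reads of paralogs and retrocopies can be shared in mapping, and the sources used here do not say how multiple matches were handled.

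Neighbouring genes shared some of the peaks. Another coding gene had an end within 1 kb of an end of 32 members, and 53.9 ± 21.3% of these were called in WT (SD, n = 4), against 50.9 ± 13.5% of the 57 with no such neighbour. By library the former were called in 25, 75, 53.1 and 62.5% of cases and the latter in 33.3, 47.4, 63.2 and 59.6%, so neither was higher throughout. Of the 18 members called in all 4 WT libraries, 11 had no such neighbour. Rpl9 beside Lias, Rps28 beside Ndufa7 and Rpl15 beside Nkiras1 are shared starts whose peaks lay within 1 kb of both genes. The same held for Rps18 beside Vps52 in WT 2 and WT 3, while the WT 4 peak of Rps18 lay at its far end, within 1 kb of B3galt4.

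The promoters of the members were rich in CG. In the 300 bases of the table, 250 before and 50 after the start, the 69 members had a median of 21 CG dinucleotides and 57% GC, and all 17492 genes 13 and 56.3%. Members with a peak at the start in 0, 1, 2, 3 and 4 WT libraries had median CG counts of 13.5, 17, 23, 23.5 and 23. Over all genes these medians were 3, 15, 19, 22 and 26, so the uncalled members had more CG than uncalled genes at large. At like CG content the members' mean share was the lower one in each of 4 bins. Only with 10 to 19 CG dinucleotides was it lower in every WT library. Members were the higher ones in WT 4 with 0 to 9, in WT 2 with 20 to 29, and in WT 2 and WT 3 with 30 or more. With 0 to 9 CG dinucleotides, 4.17 ± 8.33% of 6 members and 12.1 ± 3.26% of 7484 genes had a WT peak at the start (SD, n = 4). With 20 to 29 CG dinucleotides, it was 59.2 ± 15.2% of 30 members and 61.7 ± 14.8% of 3694 genes, with 10 to 19 it was 41.7 ± 17.0% of 24 and 47.6 ± 13.3% of 3699, and with 30 or more 75 ± 21.0% of 9 and 78.0 ± 9.17% of 2615 (SD, n = 4). These are descriptions across genes, and no test was made on them.

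**Figure D4:**
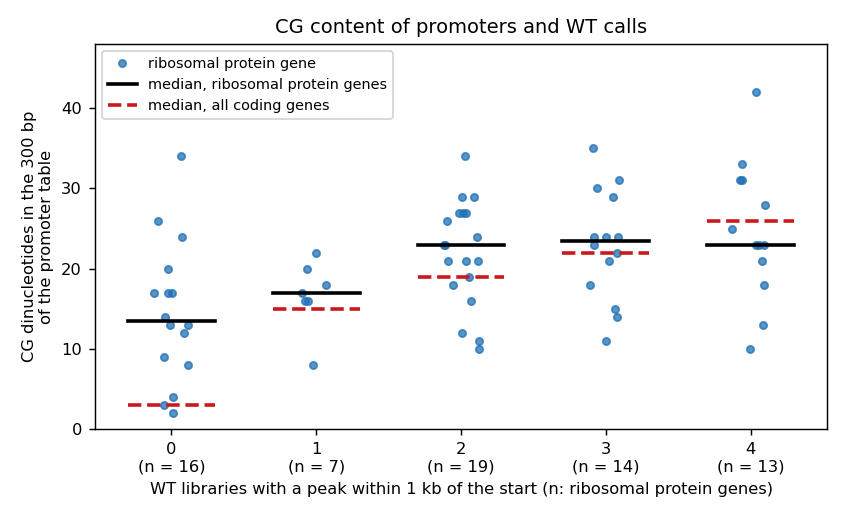
CG dinucleotides in the 300 bp of the promoter table (y axis) for each ribosomal protein gene with a listed start, by the number of WT libraries with a peak at the start (x axis). Black lines are the members' medians, 13.5 with no WT library and 23 with all 4, and dashed red lines are the medians of all coding genes, 3 and 26.

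Motif letters were counted on both strands of the same 300 bases. CCGGAAG, the core bound by ETS factors such as GABP, was present in 25 of 69 members (36.2%) and in 11.9% of all promoters in the table. GGGCGG, the box bound by Sp1, was present in 40 members (58.0%) and 46.3% of promoters, and AAGATGG, which is part of the YY1 site of many ribosomal protein promoters, in 10 (14.5%) and 6.35%. CACGTG was present in 5 members (7.25%) and 7.91% of promoters, and TATAAA in 8 (11.6%) and 13.3%. CCGGAAG was in 3 of the 16 members with no WT peak at the start (18.8%) and in 6 of the 13 with a peak in all 4 (46.2%), but in only 1 of the 14 with 3, so its presence did not follow the calls step by step.

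Read from the listed start site, the first bases were a C followed by 4 pyrimidines (C or T) in 14 of the 69 members (20.3%). The same held for 2.17% of all genes in the table. Listed starts are annotations, not measured first bases of messages, and 59 of the 69 lay at the annotated gene start. The count therefore does not give the share of members whose messages carry such a tract. Members with these bases at the listed start had no common pattern of peaks: 3 of 16 with no WT peak at the start had them, and 3 of 13 with a peak in all 4 WT libraries. This count was added after the data were seen.

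Other genes of translation were called at similar or higher rates in WT. None was called in K49A 1 or K49A 2, where only 0.429 and 0.334% of all coding genes were. Of 36 initiation factor genes, which bring the small subunit to the message, 15, 25, 27 and 27 were called in WT 1 to 4 (65.3 ± 16.0%, SD, n = 4), and 11 in all 4. Of 8 elongation factor genes 6, 6, 7 and 6 were called (78.1 ± 6.25%, SD, n = 4), and 4 in all 4 WT libraries. Of 62 genes of ribosome biogenesis, which build the subunits in the nucleolus, 19, 31, 42 and 39 were called (52.8 ± 16.6%, SD, n = 4). The shares of these lists were above those of all coding genes in each WT library. Stricter peaks and equal list lengths, which removed the members' surplus, were not tried for them.

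The 78 mitochondrial ribosomal protein genes, which serve the separate ribosome of that organelle, were called in 24.4, 47.4, 55.1 and 52.6% of cases in WT 1 to 4. The cytosolic set was above them by 5.98, 9.87, 4.42 and 8.11 percentage points, in 4 of 4 WT libraries, a mean of 7.09 ± 2.39 (SD, n = 4). This is a description with no test, and it was not repeated with stricter peaks or equal list lengths. The differences were taken within each library, so the spread of either set between WT libraries does not measure theirs. Coding genes no longer than the longest member (16779 bp) were called in 19.2, 32.4, 35.5 and 37.8% of cases in WT and in 0.371 and 0.333% in K49A. In WT the cytosolic genes were higher than these by 20.7 ± 6.44 percentage points (SD, n = 4). That longest member is Rps23rg1, which is outside the core set, and the median member has 3183 bp, so this background is not matched in length. It was not repeated with stricter peaks or equal list lengths.

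**Figure D5:**
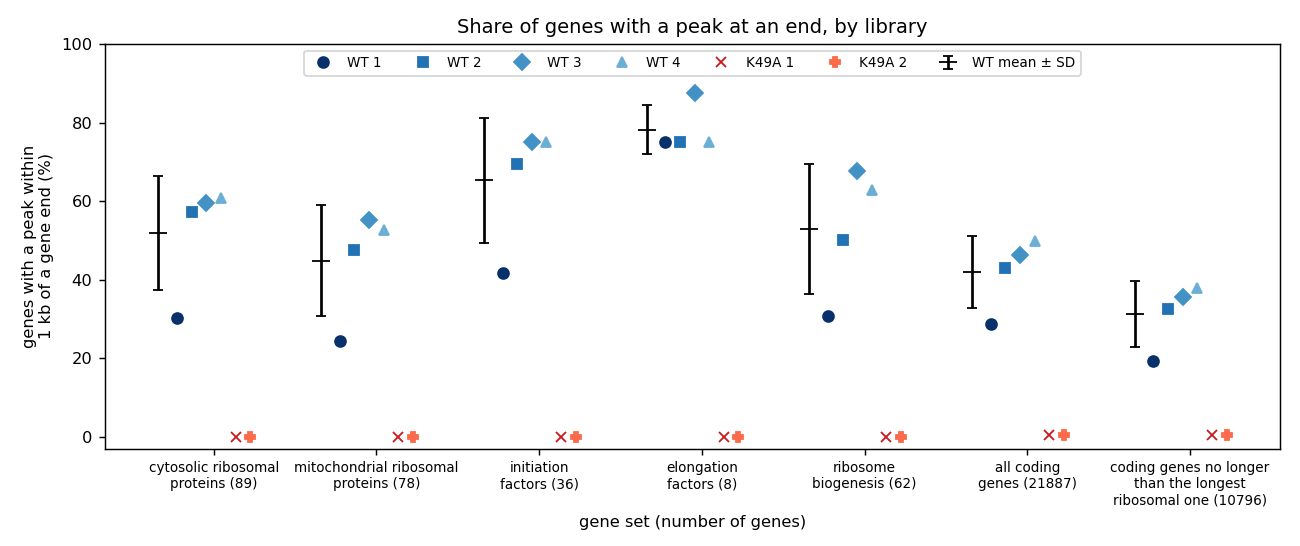
Percent of genes with a peak within 1 kb of a gene end (y axis) in each of 6 libraries, for the gene sets on the x axis, with the WT mean and SD (n = 4) as black bars. Cytosolic ribosomal protein genes run from 30.3% in WT 1 to 60.7% in WT 4, and both K49A libraries are at 0 for the first 5 sets.

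Marker genes of the labelled cell type and of its neighbours were also looked up, although a peak on DNA is no measure of expression. Of 10 sperm genes 1, 2, 1 and 1 were called in WT 1 to 4, of 14 leukocyte genes 4 in each WT library, and of 12 epididymal epithelium genes 1, 2, 1 and 1. None of these was called in K49A. Of the 9 leukocyte genes with a strand, 0, 1, 0 and 0 were called at the start in WT 1 to 4, and 3, 2, 3 and 3 at the far end. Of 10 epididymal genes with a strand, 0, 1, 0 and 0 were called at the start and 1 in each WT library at the far end. None of 7 sperm genes with a strand was called at either place. The WT means of all coding genes with a strand were 39.9% at the start and 4.01% at the far end. The sperm and epididymal shares, 8.33 to 20%, lay below those of all coding genes in each WT library (28.8, 43, 46.3 and 49.9%), and the leukocyte share of 28.6% lay just below in WT 1 and farther below in the others. The part of other cells in the calls at ribosomal protein genes was not tested.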

How the data were processed

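MNase-seq peak lists of 4 WT and 2 K49A sperm libraries were used, grouped by sample title. Per the submitters' processing notes, the tools were FastQC, BWA, Picard, SAMtools and MACS2, and the build was mm10. The sources used here do not give versions, settings, an input control or whether the molecular identifiers were used to remove duplicates. Each deposited peak has the authors' fold (a linear ratio to background), its −log10 p, its −log10 q and a whole-number score. The deposited files are named as having blacklisted regions taken out. The lowest −log10 q was 1.00 to 1.04 in each deposited list. No read counts were used, so the depth of the libraries is unknown and peak number is not corrected for it.

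Peaks were overlapped with windows of 1 kb around both ends of RefSeq genes (GRCm38.p6) in Python 3.11.15 with numpy 2.4.6, pandas 2.3.3 and scipy 1.17.1, and the code was tested on simulated peaks. Strand and start site came from the RefSeq promoter table. Members with no entry included Rpl3, Rpl7, Rpl8, Rpl17, Rpl21, Rpl23a, Rpl29, Rpl30, Rpl32, Rpl36, Rplp1, Rps14, Rps20, Rps27a and Rps29. Of the rest, 59 of 69 members with an entry had a listed start at the annotated gene start. A few members are counted but not reported here by name. Replicate spread is that between libraries. Alternatives were other windows, peak thresholds, list lengths, member sets and left-out libraries. The members, the gene lists and the naming rule (the 10 best-ranked members called in all 4 WT libraries, fixed subgroups and uncalled members) were chosen with earlier results of these data known.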

Additional observations from a re-analysis of the deposited data

Results flagged for a closer look

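In 42 groups of 4 WT values, 5 had a sample that stood apart from the rest, where chance sets apart about 1 in 20. WT 1 was low in 4 of them: 30.3% of members called, 32.5% of core members, 41.7% of initiation factor genes, and a −log10 q of 1.54 at Rpl35a. In the fifth, WT 3 was high at 87.5% of elongation factor genes, where the other WT libraries had 75%, a difference of 1 gene. WT 1 is also the shortest WT list, with 11313 peaks, and at that common length the 4 WT libraries had 27, 28, 24 and 26 called members.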

How the results depend on the processing

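No member was called in K49A, so the sign of the genotype difference says nothing of its stability. From 52 percentage points the difference moved to 22.5 at a −log10 p of at least 5, 27.2 at a −log10 q of at least 2, 29.5 with WT lists of 11313 peaks and 0.562 with lists of 700. Under the same 4 settings the number of members called in all WT and no K49A libraries fell from 18 to 5, 6, 6 and 0. The same counts over all coding genes were not made under them. Among the 57 members without a neighbour it was 11, beside 18 of all 89, so that smaller count goes with a smaller set. The members' surplus over all coding genes, 9.98 ± 5.81 percentage points (SD, n = 4), was -1.91, -0.402, 0.198 and -1.24 under those 4 settings. It was 20.7 against genes no longer than the longest member, a background chosen after seeing the data. The median fold of 3.02 was 3.32, 3.24, 3.18 and 4.50. The share called at the start only was 74.7% with 2 kb windows. The subunit difference of 1.68 ± 10.7 percentage points (SD, n = 4) ran from -3.76 (members without a neighbour) to 5.26 (2 kb windows). Its sign thus changed between alternatives. All 12 lay within that wide spread, which says little of its stability.

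Leaving out 1 library gave 49.1 to 59.2 percentage points between genotypes, 18 to 32 members (the highest without WT 1), a surplus of 8.54 to 12.8 percentage points, a subunit difference of -2.66 to 5.26, start-only shares of 95.1 to 97.6% and median folds of 2.98 to 3.06. The replicate block over the 2 pairs that share a number in the titles gave 43.8 percentage points. Deviations of same-numbered libraries correlated at -0.0104 and -0.00618 over genes, so the numbers are not shown to pair the libraries. Peak lists without read counts do not show whether an uncalled member lies just under the threshold.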
